A study of Mus musculus with 22 samples.

Results

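The vitamin D receptor (VDR) was mapped by chromatin immunoprecipitation sequencing (ChIP-seq) in differentiated MC3T3-E1 cells, a mouse pre-osteoblast line from calvaria that deposits mineralized matrix, with calcitriol or with vehicle. Sites were called in the calcitriol list, the vehicle list or both, and sites of the lists that overlapped by at least 1 bp were taken as called in both treatments. The calcitriol list held 871 sites on chromosomes 1 to 19 and X and the vehicle list 274, which gave 892 distinct VDR sites among the 360258 regions of the 22 lists in the series. Of these, 617 were calcitriol-only, 254 calcitriol sites were called in both treatments (they matched 253 vehicle sites) and 21 were vehicle-only. Calcitriol is 1,25(OH)2D3, the hormonal form of vitamin D. It was given at 100 nM for 3 h, and the vehicle was ethanol. All differentiated cultures had grown for 15 days with glycerol-2-phosphate and ascorbic acid, at passages 5 to 12, and their matrix was removed by homogenization and a sucrose spin before the assay. Lists of RXR with calcitriol and with vehicle, and of C/EBPβ, RUNX2, H4K5Ac, H3K9Ac, H3K4me1, H3K4me3 and H3K36me3 with calcitriol, came from the same differentiated state. Undifferentiated cells of the line, grown without these additions, supplied VDR lists with calcitriol and with vehicle for comparison. Each group is 1 list, read as the overlap of replicates, so no spread between cultures could be measured, and every interval and p-value covers the counting of sites only.

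VDR is a nuclear receptor that, once it binds calcitriol, pairs with the retinoid X receptor (RXR) on DNA. The preferred element is a direct repeat of 2 hexamers with 3 bases between them (DR3). In bone-forming cells the hormone acts on genes of matrix, mineral handling and osteoclast recruitment. C/EBPβ and RUNX2 are transcription factors of the osteoblast lineage. H3K4me1 marks enhancers, acetylated histones mark active enhancers and promoters, H3K4me3 marks active promoters and H3K36me3 marks transcribed gene bodies.

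The sequences of 8 calcitriol-only sites near named genes show the element as it occurs there. In each, capitals mark the DR3 match nearest the centre among the best matches; all coordinates are mm9 and all sequences are the plus strand, 5′ to 3′. The sites at Spp1 (chr5:104863283-104863483, promoter), Sparc (chr11:55219441-55219641, intron) and Igfbp5 (chr1:72961478-72961678, intergenic) held a DR3 with no mismatch. Those at Rara (chr11:98800545-98800745, promoter), Actb (chr5:143671565-143671765, intergenic), Mgp (chr6:136815008-136815208, intergenic), Mmp13 (chr9:7262015-7262215, intergenic) and Tgfbr3 (chr5:107587685-107587885, intron) had 1 mismatch. The Igfbp5 match lies on the minus strand and the other 7 on the plus strand.
Spp1: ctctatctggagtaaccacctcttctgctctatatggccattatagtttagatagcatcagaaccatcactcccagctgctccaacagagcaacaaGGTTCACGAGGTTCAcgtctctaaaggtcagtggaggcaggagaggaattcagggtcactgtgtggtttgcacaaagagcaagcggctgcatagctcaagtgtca
Sparc: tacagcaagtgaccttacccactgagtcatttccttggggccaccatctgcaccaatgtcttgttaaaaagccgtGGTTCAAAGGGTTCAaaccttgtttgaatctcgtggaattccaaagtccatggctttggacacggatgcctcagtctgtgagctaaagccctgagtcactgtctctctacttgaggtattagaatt
Igfbp5: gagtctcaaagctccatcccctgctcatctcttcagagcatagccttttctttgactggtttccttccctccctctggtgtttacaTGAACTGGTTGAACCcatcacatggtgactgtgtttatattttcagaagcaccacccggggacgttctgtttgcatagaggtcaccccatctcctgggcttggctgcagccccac
Rara: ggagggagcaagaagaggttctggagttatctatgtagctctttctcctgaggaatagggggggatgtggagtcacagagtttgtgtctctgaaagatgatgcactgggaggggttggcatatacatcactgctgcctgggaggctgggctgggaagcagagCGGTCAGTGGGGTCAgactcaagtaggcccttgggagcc
Actb: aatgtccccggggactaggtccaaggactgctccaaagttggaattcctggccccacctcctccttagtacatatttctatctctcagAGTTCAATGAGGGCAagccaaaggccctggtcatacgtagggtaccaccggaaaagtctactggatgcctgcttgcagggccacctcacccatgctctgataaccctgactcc
Mgp: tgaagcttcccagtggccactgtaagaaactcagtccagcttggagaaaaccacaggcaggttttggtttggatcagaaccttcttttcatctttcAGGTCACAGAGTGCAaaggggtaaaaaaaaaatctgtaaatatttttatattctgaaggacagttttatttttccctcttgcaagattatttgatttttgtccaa
Mmp13: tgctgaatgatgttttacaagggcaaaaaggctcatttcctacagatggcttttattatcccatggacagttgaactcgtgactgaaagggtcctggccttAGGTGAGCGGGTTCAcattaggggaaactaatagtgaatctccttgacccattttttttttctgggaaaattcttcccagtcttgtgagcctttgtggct
Tgfbr3: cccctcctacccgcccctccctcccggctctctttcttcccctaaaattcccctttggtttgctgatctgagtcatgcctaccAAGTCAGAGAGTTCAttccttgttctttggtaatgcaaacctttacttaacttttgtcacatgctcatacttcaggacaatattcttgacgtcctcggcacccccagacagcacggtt

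Sites of both treatments at gene starts are shown for contrast, for 3 genes of protein synthesis and breakdown. They are the plus-strand bases of the site that lie upstream of annotated exons at Rpl5, a ribosomal protein gene (chr5:108329419-108329520), and at Psmd1 (chr1:87960841-87960961) and Psmb1 (chr17:15635241-15635396), proteasome subunit genes. None of the 3 sites held a DR3 match. Capitals mark a GC box, the binding sequence of Sp factors, in the Psmb1 site. Among the other promoter motifs searched, no match lay in the bases printed for Rpl5 and Psmd1.
Rpl5: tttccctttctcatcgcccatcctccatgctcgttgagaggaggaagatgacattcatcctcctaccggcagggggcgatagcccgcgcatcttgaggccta
Psmd1: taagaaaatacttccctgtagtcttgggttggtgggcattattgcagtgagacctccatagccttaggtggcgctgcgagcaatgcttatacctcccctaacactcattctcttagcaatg
Psmb1: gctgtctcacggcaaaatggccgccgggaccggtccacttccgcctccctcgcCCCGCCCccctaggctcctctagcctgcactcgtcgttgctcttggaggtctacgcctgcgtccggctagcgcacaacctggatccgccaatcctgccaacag

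Some of the sites called under vehicle lay in repeated sequence, which bears on the results away from promoters. Counting 31-base words over the mm9 genome, the median word occurred more than once at 8 of 617 calcitriol-only sites (1.30%), at 23 of 254 sites of both treatments (9.06%) and at 12 of 21 vehicle-only sites (57.1%). Over 1 kb from a start these were 6 of 514 calcitriol-only sites (1.17%) and 21 of 51 sites of both treatments (41.2%). Vehicle sites also crowded together: 7 stretches held 3 or more of them with gaps of at most 50000 bp, of which 3 lay on the X chromosome, 1 at the start of chromosome 9 and 1 over Brd3 on chromosome 2. Calcitriol-only sites formed such stretches too, among them 4 sites at Spp1 and 4 at Med13l, none multi-copy, and 3 multi-copy sites at Tcte2. Because of the multi-copy sites, Fisher's exact tests on distal sites are given with and without them. The Breslow-Day tests, which compare odds ratios between distal and promoter sites, were run only with them included. H3K4me3 lay at the start of 6 of 12 osteoblast marker genes (50.0%) and H3K9Ac at 7 of 12 (58.3%), near the shares of all genes, 42.4% and 51.5%, so these counts do not set the osteoblast markers apart; neither mark was at Ibsp, Bglap, Bglap2, Dmp1 or Phex, genes of late osteoblasts and osteocytes. Neither mark was at any of the 5 adipocyte, 4 muscle and 5 blood marker genes examined, and among 5 chondrocyte markers H3K4me3 was at 1 and H3K9Ac at 3.

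Most VDR sites with calcitriol were absent from the vehicle list, and few sites went the other way. Calcitriol-only sites made up 617 of 871 calcitriol sites (70.8%, exact Clopper-Pearson 95% interval 67.7 to 73.8). Of the 274 vehicle sites, 21 (7.66%, 4.81 to 11.5) were not called with calcitriol. Where both treatments called a site, the 2 centres lay a median of 11 bp apart and at most 162 bp. Of the calcitriol-only sites, 15 of 617 (2.43%) lay within 10 kb of a vehicle site. No share for scattered sites was computed, so this does not tell whether they lie nearer or farther than such sites would. In undifferentiated cells 6214 of 7000 calcitriol sites (88.8%) were calcitriol-only. The odds of being calcitriol-only were lower in differentiated than in undifferentiated cells (odds ratio 0.307, interval 0.260 to 0.364; two-sided Fisher's exact p = 2.25e-40). The test and interval take the counts of the 2 states as independent, which they are not, since the states share many sites. State, matrix removal and list length differ together between these cultures and cannot be told apart. Most calcitriol-only sites of differentiated cells were called in undifferentiated cells as well: 93.2% were in the undifferentiated calcitriol list and 22.0% in the undifferentiated vehicle list. Sites of both treatments were in these lists in 85.0% and 87.4% of cases.

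Calcitriol-only sites lay mostly away from gene starts and sites of both treatments mostly at them. Within 1 kb of a protein-coding start lay 103 of 617 calcitriol-only sites (16.7%, 13.8 to 19.9) and 203 of 254 sites of both treatments (79.9%, 74.5 to 84.7; odds ratio 0.0506, two-sided Fisher's exact test, Benjamini-Hochberg adjusted p over 13 features = 3.86e-70). Of the calcitriol-only sites, 202 were intronic and 305 intergenic; of the sites of both treatments, 12 and 35. The median distance to the nearest start was 22980 bp for calcitriol-only sites and 60.5 bp for sites of both treatments. The 21 vehicle-only sites included 6 at promoters and 13 intergenic ones. At promoters the median positions were close, at -41 bp (calcitriol-only) and -40 bp (both treatments) from the start, though 63 of 103 calcitriol-only and 189 of 203 both-treatment sites lay between 200 bp upstream and 100 bp downstream. Calcitriol-only sites had a median GC content of 49.3% and 3 CpG dinucleotides per site, whereas sites of both treatments had 61.2% and 15; over all protein-coding promoters the medians were 58.7% and 10.

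**Figure D1:**
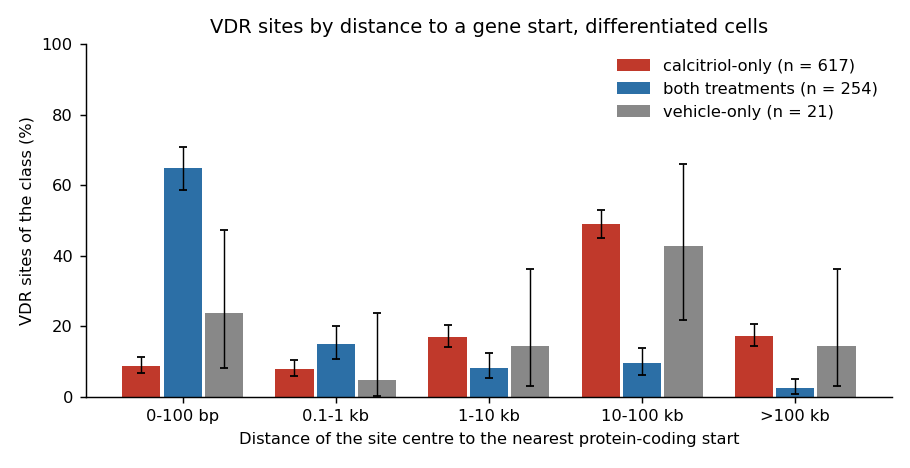
Share of the VDR sites of each class (percent, vertical axis) by distance of the site centre to the nearest protein-coding start (horizontal axis), for calcitriol-only, both-treatment and vehicle-only sites; error bars are exact 95% intervals for counting. In the bin up to 100 bp lie 8.75% of calcitriol-only sites and 65.0% of sites of both treatments; in the bin from 10 to 100 kb lie 48.9% and 9.45%.

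The DR3 element was found mostly in calcitriol-only sites. The hexamer is A or G, then G, then G or T, then TCA. It was searched on both strands of the whole site as direct, everted and inverted repeats at 26 spacings in all, with at most 1 mismatch per pair. A DR3 lay in 206 of 617 calcitriol-only sites (33.4%, 29.7 to 37.3) and in 3 of 254 sites of both treatments (1.18%, 0.244 to 3.41; odds ratio 41.8, interval 13.9 to 207; Fisher's exact test adjusted over 22 motifs, p = 1.99e-30). Windows of the same length 2 kb to either side of calcitriol-only sites held one in 1.13% of cases, all protein-coding promoters in 0.950%, and RXR sites of the same cells without VDR in 3.47%. The difference held within position: 12.6% of calcitriol-only and 0.493% of both-treatment sites at promoters had a DR3 (Fisher's exact adjusted p = 8.79e-05), and 37.5% and 3.92% away from them (odds ratio 14.7, Fisher's exact adjusted p = 1.94e-06). Without multi-copy sites the distal shares were 38.0% and 6.67% (odds ratio 8.56, Fisher's exact adjusted p = 0.00273). The next spacing, DR4, was in 48 calcitriol-only sites (7.78%) and in 0 of 254 sites of both treatments, with an exact upper limit of 1.44% (flanking windows of calcitriol-only sites 1.70%, all promoters 0.973%; Fisher's exact adjusted p = 3.30e-07). RXR sites without VDR held a DR4 in 5.26% of cases. DR4 is known as an element of other RXR partners such as thyroid hormone and liver X receptors. All 48 lay over 1 kb from a start, where the difference from 0 of 51 both-treatment sites did not pass (Fisher's exact adjusted p = 0.0615, and 0.389 against 0 of 30 without multi-copy sites). Of the 48 sites, 39 had no DR3.

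**Figure D2:**
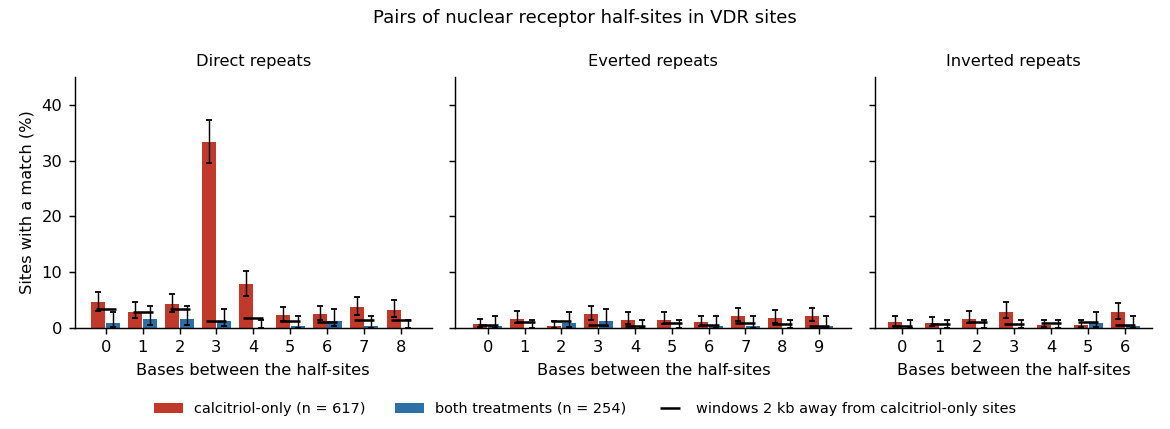
Percent of calcitriol-only VDR sites and of sites of both treatments with a pair of hexamers (vertical axis) by the number of bases between the hexamers (horizontal axis), for direct, everted and inverted repeats; error bars are exact 95% intervals, and the short black lines give the share in windows 2 kb away from calcitriol-only sites. The direct repeat with 3 bases stands at 33.4% of calcitriol-only sites, the next highest, with 4 bases, at 7.78%.

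The DR3 matches sat near the site centres and their hexamers were unequal. The match lay a median of 16 bp from the centre, and within 50 bp at 179 of 206 sites (86.9%); 49 matches were without mismatch. The 5′ hexamer was most often AGGTCA or GGGTCA, at 45 sites each, and the 3′ hexamer AGTTCA, at 53, or GGTTCA, at 43. So the third base was G in 70.4% of 5′ hexamers, whereas T stood there in 74.8% of 3′ hexamers. The last base of the spacer was G in 66.5% of matches, although the search left it free. The 206 sites held 195 distinct words of 15 bases, so the match was not 1 repeated element.

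The 2 classes also differed in the motifs of other factors. The ETS word CCGGAAG, common in housekeeping promoters, was in 3.57% of calcitriol-only sites and 30.3% of both-treatment sites (all promoters 9.43%; Fisher's exact adjusted p = 1.22e-25). At promoters alone the shares were 14.6% and 35.5% (Fisher's exact adjusted p = 9.95e-04). The GC box, GGGCGGG, was in 4.05% of calcitriol-only and 21.3% of both-treatment sites, with 27.8% in all promoters (Fisher's exact adjusted p = 2.64e-13); at promoters alone, 13.6% and 24.1%, the difference was not called (Fisher's exact adjusted p = 0.131). Words of the YY1 (AAGATGGCG) and NRF1 (GCGCATGCG) factors were in 0.810% and 0.162% of calcitriol-only sites and in 4.33% and 3.94% of both-treatment sites (all promoters 1.93% and 1.71%; Fisher's exact adjusted p = 0.00239 and 1.00e-04); at promoters alone neither passed (Fisher's exact adjusted p = 1 and 0.0969). In the other direction, RUNX (TGTGGT) was in 28.8% of calcitriol-only and 12.2% of both-treatment sites (all promoters 10.1%), TEAD (GGAATG) in 20.3% and 6.30% (all promoters 8.01%), AP-1 (TGANTCA) in 12.3% and 3.94% (all promoters 4.16%) and C/EBP (TTGCNNAA) in 68 of 617 and 10 of 254 (all promoters 5.55%). RXR sites without VDR held RUNX in 33.9%, TEAD in 21.0%, AP-1 in 16.8% and C/EBP in 13.2% of cases, each above the share of calcitriol-only sites. The 4 words passed between the VDR classes over all sites (Fisher's exact adjusted p = 3.30e-07 for RUNX and TEAD, 2.36e-04 for AP-1 and 0.00147 for C/EBP). ETS passed over 1 kb from a start, with 1.36% and 9.80% (Fisher's exact adjusted p = 0.0241), and without multi-copy sites, with 1.38% and 16.7% (Fisher's exact adjusted p = 0.00273). The GC box there, at 2.14% and 9.80%, did not pass (Fisher's exact adjusted p = 0.05004), and did without multi-copy sites, at 2.17% and 16.7% (Fisher's exact adjusted p = 0.00725). Of RUNX, TEAD, AP-1 and C/EBP none passed there, with multi-copy sites or without them, and at promoters only TEAD passed, with 14.6% of calcitriol-only and 4.43% of both-treatment sites (Fisher's exact adjusted p = 0.0208). All words were searched on both strands without mismatch and counted separately; overlaps between different words were not removed.

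RXR, C/EBPβ and RUNX2 lay at calcitriol-only sites more often than at sites of both treatments, and for RXR and C/EBPβ the contrast was larger away from promoters. RXR with calcitriol overlapped 79.9% (76.5 to 83.0) of calcitriol-only sites and 32.3% (26.6 to 38.4) of both-treatment sites. C/EBPβ overlapped 39.5% and 9.06%, and RUNX2 39.1% and 20.1%. All 3 passed over all sites (odds ratios 8.31, 6.56 and 2.55; Fisher's exact tests adjusted over 13 features, p = 1.05e-39, 7.90e-21 and 6.81e-08). Over 1 kb from a start, RXR was at 87.0% of 514 calcitriol-only and 13.7% of 51 both-treatment sites, C/EBPβ at 44.9% and 7.84%, and RUNX2 at 41.6% and 17.6% (odds ratios 41.5, 9.56 and 3.32; Fisher's exact adjusted p = 1.18e-26, 1.01e-07 and 8.73e-04). Without multi-copy sites (508 and 30 sites left), RXR stood at 446 of 508 (87.8%) and 6 of 30 and C/EBPβ at 45.5% and 6.67%, and both stayed past the threshold; RUNX2, at 41.9% and 23.3%, did not (Fisher's exact adjusted p = 0.0661). At promoters none of the 3 passed: RXR was at 44.7% of 103 calcitriol-only and 36.9% of 203 both-treatment sites (odds ratio 1.38, interval 0.825 to 2.29; Fisher's exact adjusted p = 0.438). The odds ratio for RXR differed between distal and promoter sites (large-sample Breslow-Day chi-square test, adjusted p = 1.40e-13), as did that for C/EBPβ (adjusted p = 0.00241 by the same chi-square test), while for RUNX2 the chi-square test did not pass (adjusted p = 0.0666). These tests include the multi-copy sites. C/EBPβ was at only 4 of the 51 distal both-treatment sites, which is few for a large-sample test. All 3 factors together were at 144 of 617 calcitriol-only sites (23.3%) and 5 of 254 both-treatment sites (1.97%), and none of them at 16.4% and 55.1%. Vehicle-only sites had RXR with calcitriol at 0 of 21, which leaves an exact upper limit of 16.1%.

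**Figure D3:**
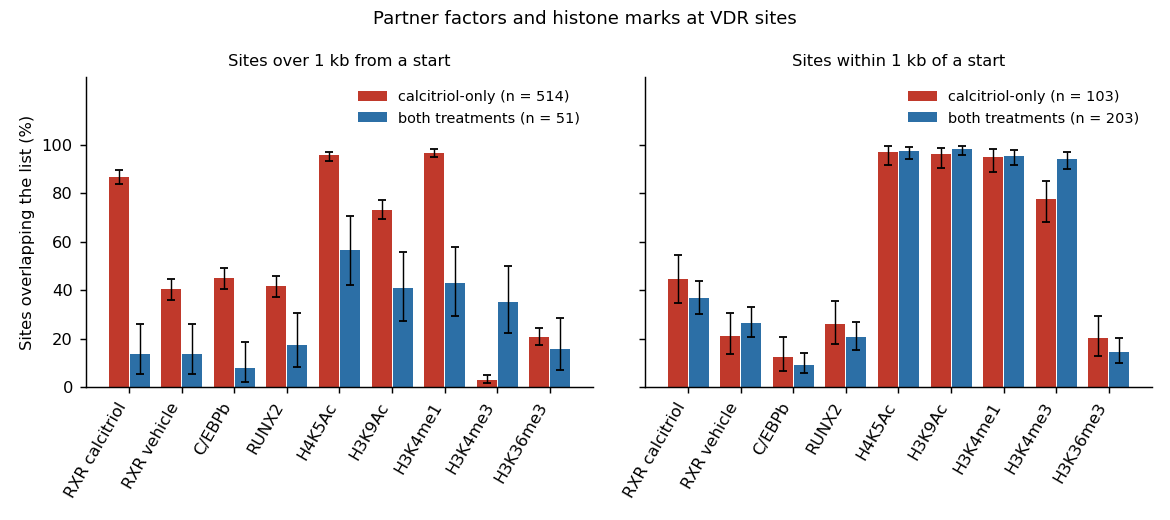
Percent of VDR sites that overlap a region of each differentiated list (vertical axis), for calcitriol-only and both-treatment sites over 1 kb from a start (left panel) and within 1 kb (right panel); error bars are exact 95% intervals. RXR with calcitriol stands at 87.0% and 13.7% in the left panel and at 44.7% and 36.9% in the right one.

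Many calcitriol-only sites had RXR without hormone, and a further 272 had it only with hormone. RXR was called in both treatments at 221 of 617 sites (35.8%), with calcitriol only at 272 (44.1%), with vehicle only at 9 (1.46%) and in neither at 115 (18.6%). The calls differed between treatments at the same sites (exact two-sided McNemar test, p = 1.41e-68). The RXR list was longer with calcitriol as a whole, with 8126 sites against 4815 with vehicle. Among RXR calcitriol sites that overlapped a calcitriol-only VDR site, 54.9% (50.4 to 59.3) were absent from the vehicle list, and among those without VDR 47.0% (45.9 to 48.1; odds ratio 1.37, interval 1.14 to 1.65; two-sided Fisher's exact p = 7.99e-04). The centres of RXR and VDR lay a median of 21 bp apart where RXR was called with calcitriol only and 30 bp where it was called in both treatments.

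Sites where RXR was called with calcitriol only differed in make-up from those with RXR in both treatments. A DR3 match was in 50.4% of the 272 sites with RXR under calcitriol only and in 22.6% of the 221 with RXR in both treatments (odds ratio 3.46, interval 2.30 to 5.27). RUNX2 lay at 21.3% and 75.1% (odds ratio 0.0904, interval 0.0576 to 0.140), C/EBPβ at 34.2% and 62.4% (odds ratio 0.313, interval 0.212 to 0.460) and H3K9Ac at 67.6% and 93.2% (odds ratio 0.153, interval 0.0792 to 0.277). Fisher's exact p adjusted over 11 features was 1.04e-09 for the DR3, 5.95e-33 for RUNX2, 1.44e-09 for C/EBPβ and 3.07e-12 for H3K9Ac. H4K5Ac (97.4% and 99.5%), H3K4me1 (98.5% and 100%) and nearness to a start (10.3% and 8.14%) did not pass. VDR in undifferentiated cells under vehicle was at 6.99% of sites with RXR under calcitriol only and at 26.7% of those with RXR in both treatments (Fisher's exact adjusted p = 5.06e-09). RXR sites without VDR differed in the same directions. RUNX2 was at 33.5% of those called with calcitriol only and 53.7% of those in both treatments, and DR3 at 5.44% and 1.72%. The odds ratio for RUNX2 was farther from 1 at VDR sites than at these RXR sites (0.0904 against 0.434; large-sample Breslow-Day chi-square test, adjusted p = 9.78e-13); for the DR3 the same chi-square test did not pass (3.46 against 3.28, adjusted p = 0.818).

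**Figure D4:**
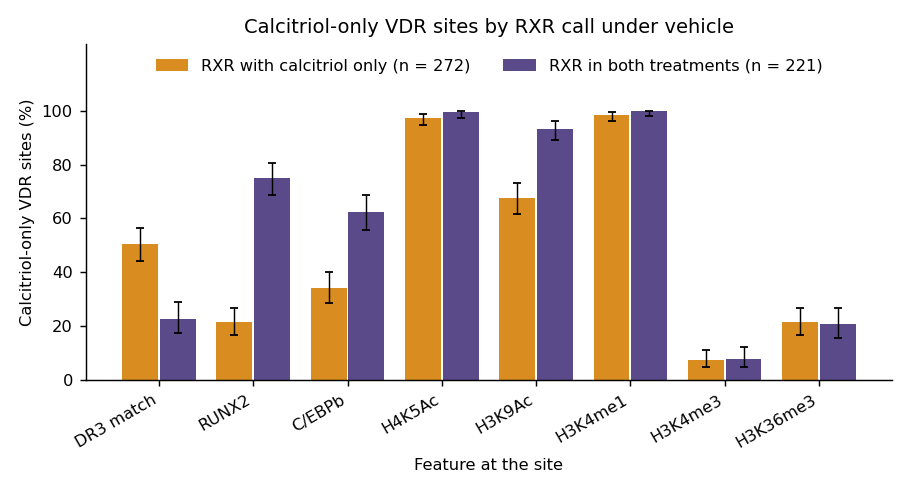
Percent of calcitriol-only VDR sites that hold each feature (vertical axis), for sites where RXR was called with calcitriol only and sites where it was called in both treatments; error bars are exact 95% intervals. The DR3 match is at 50.4% and 22.6%, RUNX2 at 21.3% and 75.1%.

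The 124 calcitriol-only sites without RXR under calcitriol lay at promoters and carried H3K4me3 more often than those with RXR. They lay within 1 kb of a start in 46.0% of cases, against 9.33% of the 493 with RXR (Fisher's exact adjusted p = 3.23e-18), and had H3K4me3 in 47.6%, against 7.51% (Fisher's exact adjusted p = 4.11e-22). A DR3 was in 15.3% of them and in 37.9% of sites with RXR (Fisher's exact adjusted p = 9.09e-07). C/EBPβ was at 10.5% and 46.9%, and RUNX2 at 13.7% and 45.4% (Fisher's exact adjusted p = 1.62e-14 and 3.50e-11).

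Most marks differed in share between the classes, and H3K9Ac did so in opposite directions over all sites and away from promoters. H3K4me3 was at 15.6% of calcitriol-only and 82.3% of both-treatment sites (odds ratio 0.0399, Fisher's exact adjusted p = 3.54e-78). H3K4me1 was at 96.6% and 85.0% (adjusted p = 1.24e-08 by the same Fisher's exact test) and H3K9Ac at 77.1% and 87.0% (Fisher's exact adjusted p = 8.38e-04). H4K5Ac, at 95.9% and 89.4%, passed over all sites (Fisher's exact adjusted p = 5.01e-04) but not without multi-copy sites, where it was at 96.7% and 95.7% (Fisher's exact adjusted p = 0.576). H3K36me3, at 20.7% and 15.0%, did not pass (odds ratio 1.49, interval 0.989 to 2.27; Fisher's exact adjusted p = 0.0574), but passed when sites with centres within 500 bp counted as shared (odds ratio 1.53; Fisher's exact adjusted p = 0.0376). Over 1 kb from a start H3K9Ac was at 73.3% of calcitriol-only and 41.2% of both-treatment sites (Fisher's exact adjusted p = 1.01e-05), and without multi-copy sites at 74.0% and 63.3%, which did not pass (Fisher's exact adjusted p = 0.224). H4K5Ac there was at 95.7% and 56.9%, and H3K4me1 at 96.9% and 43.1%. Without multi-copy sites they were at 96.3% and 76.7%, and at 97.6% and 66.7%, and both passed (Fisher's exact adjusted p = 4.10e-04 and 7.05e-08). H3K4me3 went the other way, at 3.11% and 35.3% of distal sites. At promoters H4K5Ac, H3K9Ac and H3K4me1 were each at over 95% of sites of either class, and of the marks only H3K4me3 passed, with 77.7% of calcitriol-only and 94.1% of both-treatment sites (Fisher's exact adjusted p = 1.71e-04). No mark at all was found at 11 calcitriol-only sites, 18 both-treatment sites and 10 vehicle-only sites; at sites over 1 kb from a start and in multi-copy sequence these were 3 of 6, 11 of 21 and 10 of 12.

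The H4K5Ac and H3K4me1 regions at calcitriol-only sites were broad, for H4K5Ac mostly away from promoters. Distinct H4K5Ac regions that overlapped calcitriol-only sites had a median width of 23643 bp, those at both-treatment sites 4551 bp, and the whole H4K5Ac list 4723 bp. At distal sites alone the medians were 27364 bp for calcitriol-only and 4187 bp for both-treatment sites, and at promoters 6064 bp and 4555 bp. For H3K4me1 the medians over all sites were 14355 bp, 6077 bp and 3936 bp, and for H3K9Ac 5009 bp, 3738 bp and 3007 bp. For H3K4me3 they were 2323 bp, 2127 bp and 2225 bp. A wider region is more likely to overlap any given site, so these widths are given as a description, without a test. At 5 kb to the right on the plus strand, 79.0% of distal calcitriol-only sites were still within an H4K5Ac region and 27.5% of distal both-treatment sites were. At promoters the shares there were 39.8% and 19.2%.

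**Figure D5:**
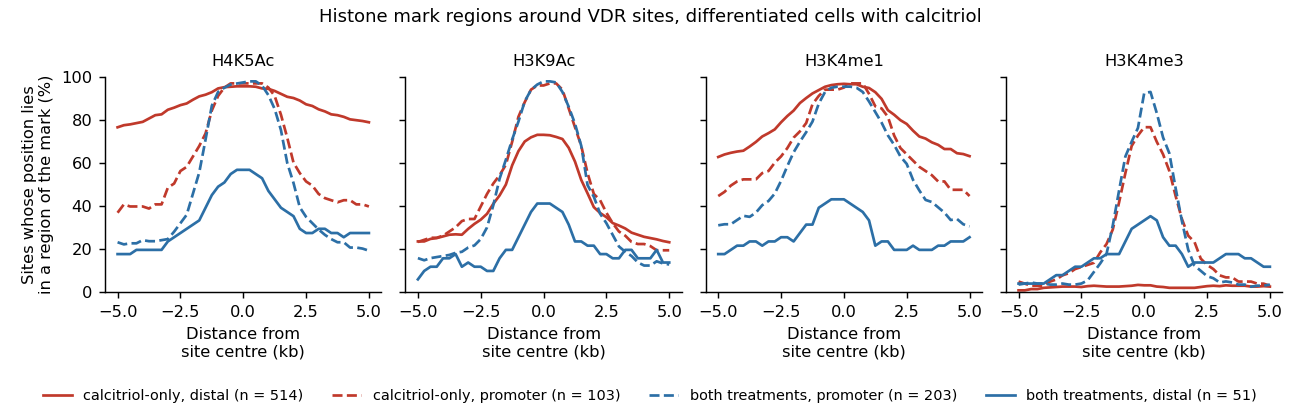
Percent of VDR sites whose surroundings lie in a region of H4K5Ac, H3K9Ac, H3K4me1 or H3K4me3 (vertical axis) by distance from the site centre in kb (horizontal axis), for calcitriol-only distal and promoter sites and both-treatment promoter and distal sites. Distal calcitriol-only sites are covered by H4K5Ac at 95.7% in the centre and 79.0% at 5 kb to the right; H3K4me3 covers 3.11% of them in the centre and 92.6% of promoter sites of both treatments.

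Calcitriol-only sites lay near several genes of vitamin D response and bone matrix. The gene lists were chosen with earlier results of these data known, so their shares are given as a description, without a test. A gene was counted when a site centre lay within 100 kb of one of its starts, which held for 1535 of 22208 protein-coding genes (6.91%). In the vitamin D response list 10 of 39 genes had a calcitriol-only site (25.6%), in the bone matrix and mineralization list 8 of 39 (20.5%) and in the Wnt list 6 of 39 (15.4%). Lists of nuclear receptors and cofactors (6 of 37), growth arrest (5 of 28), cytokines and osteoclast coupling (4 of 28), calcium and phosphate transport (2 of 23) and osteoblast transcription factors (3 of 32) had shares from 8.70% to 17.9%, the lowest close to the background, whereas BMP and TGF-beta signalling had 1 of 33 (3.03%). Within 50 kb, where 3.89% of all genes had a site, growth arrest had 1 of 28 (3.57%), osteoblast transcription factors 1 of 32 (3.13%) and osteocyte genes 0 of 8. The vitamin D list had 7 of 39 there (17.9%). The bone matrix, Wnt, and RNA and protein synthesis lists each had 5 of 39 (12.8%), and proteostasis and housekeeping had 3 of 37 (8.11%). Within 100 kb, genes of RNA and protein synthesis (7 of 39, 17.9%) and of proteostasis and housekeeping (5 of 37, 13.5%) had shares above the background too. Osteocyte genes had 2 of 8, and lists of other cell types, namely adipocyte (1 of 14), chondrocyte (1 of 12), muscle (1 of 10) and blood genes (1 of 13), had 1 each. Over all lists together it was 54 of 396 (13.6%). Neighbouring genes can share a site, as Spp1, Pkd2 and Gm10047 do. Within 1 kb of a start, calcitriol-only sites were at 0.509% of all genes and both-treatment sites at 1.06%. Both-treatment sites were within 100 kb of 6.03% of all genes and of 21 of 396 listed genes (5.30%). By list these were 1 of 39 vitamin D genes, 3 of 32 osteoblast transcription factors and 2 of 10 muscle genes. They were also 3 of 39 genes of RNA and protein synthesis and 6 of 37 proteostasis genes. The other lists had at most 2 genes each.

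Spp1, which encodes osteopontin, a secreted matrix phosphoprotein, had the most sites of any listed gene. Its 4 calcitriol-only sites lay at -73, -754, -1975 and -27018 bp on chromosome 5. Positions at named genes are measured from the nearest annotated transcript start of the gene, and negative ones lie upstream of that start. Some genes have several starts, so a negative position can lie inside the gene. Promoter means within 1 kb of any such start. The sites at -754 and -1975 bp each held a DR3 without mismatch, GGTTCACGAGGTTCA and GGGTCATATGGTTCA, and the other 2 had none. RXR with calcitriol and RUNX2 were at all 4 sites, and RXR with vehicle and C/EBPβ at 3 of them, the exception being the site at -73 bp. That site was the only one of the 4 with H3K4me3. All 4 were marked by H4K5Ac, H3K9Ac and H3K4me1.

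Other matrix genes had fewer sites, often with a DR3. Mmp13, a collagenase of bone remodelling, had sites at -10399 and -10842 bp, each with a DR3 of 1 mismatch, with RXR under calcitriol only and with H4K5Ac and H3K4me1 but no H3K9Ac. Sparc, which encodes the matrix protein osteonectin, had 1 at -3874 bp, in an intron of the annotated gene, with a DR3 without mismatch and RXR under calcitriol only. Mgp, an inhibitor of mineralization, had 1 at 9218 bp from its start, beyond the end of the gene, with RXR, C/EBPβ and RUNX2. The vitamin D list included Igfbp5, an insulin-like growth factor binding protein, with sites at -40120 bp (DR3 without mismatch) and -92760 bp (1 mismatch). Vdr itself had a site at 17857 bp within an intron, with RXR under calcitriol only and no DR3 match.

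The Wnt pathway genes named by rule carried mostly intronic sites, 1 of which held a DR3. Tcf7l1, a DNA-binding effector of the pathway, had 3 intronic sites, at -23285, 26433 and 76862 bp, of which the second held a DR3 of 1 mismatch. Tcf7l2, a related effector, had 2 intronic sites at -16691 and -55354 bp from the nearest annotated start, both inside the gene. Both had RXR in either treatment, C/EBPβ and RUNX2 and no DR3. Lrp5, a Wnt co-receptor, had 1 intronic site at 19239 bp, and Sfrp2, a secreted Wnt modulator, had 1 intergenic site at 17167 bp. Tgfbr3, a co-receptor for TGF-beta, was the only gene of its list with a site; its 2 intronic sites lay at -25843 and -27186 bp and had RXR under calcitriol only.

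Nuclear receptor and other regulators followed. Rara, the retinoic acid receptor alpha, had a site at -380 bp from a start with a DR3 of 1 mismatch, and Ncoa3, a receptor coactivator, had 2 at 48761 and 86047 bp, both with a DR3 of 1 mismatch and all 3 partner factors; the farther site lies in the promoter of Sulf2. Fosl2, an AP-1 member, had sites at 55681 bp and at -57277 bp. The second of these lay within Bre, at -502 bp from an annotated start inside that gene. Runx1 had 1 intronic site at -13046 bp with all 3 partners. Il34, a ligand of the macrophage colony-stimulating factor receptor, had 1 at -2847 bp, and Ccl9, a chemokine, 1 at -4717 bp. Atp2b4, a plasma membrane calcium pump, had sites at 32064 bp and at -99916 bp. The second lay within Optc, 370 bp past an annotated start inside that gene. Ccnd3, a cyclin, had 1 at 17839 bp, which lay in the promoter of another gene. Housekeeping genes named by the same rule included Actb, with a DR3 of 1 mismatch at -3232 bp and a second site at 87961 bp in another gene's promoter, U2af1 with 2 sites, and Eif2s1, Eef1a1 and Rpl8 with 1 each; the Eif2s1 site lay 37 bp past its start without any of the 3 partners.

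Beyond the lists, the genes with the most calcitriol-only sites had up to 4 within 100 kb. Of all genes, 5 had 4 sites, 19 had 3, 122 had 2 and 1389 had 1. No gene had more. Besides Spp1 and its neighbours Pkd2 and Gm10047, which share its sites, those with 4 were Cald1, which encodes the actin-binding protein caldesmon, and Med13l, a Mediator subunit gene. Cald1 had sites at 929, -1785, 35325 and -83196 bp, and Med13l at -25354, -44103, -46423 and -95040 bp; RXR with calcitriol was at all 8 and none held a DR3. Prelp and Optc, neighbouring genes of small leucine-rich proteoglycans, share 3 sites, and Bre had 3, all with all 3 partners. Lrrc8b had 3 sites at -2681, -2986 and -4014 bp, the first with a DR3 without mismatch (GGGTCACTGAGTTCA). The 3 sites in Tcte2 lay in multi-copy sequence, with no partner at any of them.

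Among 396 listed genes, a site called under vehicle lay within 1 kb of a start of 3 (0.758%), against 1.06% of all genes for sites of both treatments. These were Rpl5 at -2 bp, Psmd1 at -21 bp and Psmb1 at -56 bp, all of both treatments. H4K5Ac, H3K9Ac, H3K4me1 and H3K4me3 were at all 3, C/EBPβ and RUNX2 at none. RXR was called with calcitriol at Rpl5 and with vehicle at Psmd1, and in neither treatment at Psmb1.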

How the data were processed

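ChIP-seq regions of 13 of the 22 lists were used. Per the submitters' processing notes, Bowtie and HOMER were the tools and mm9 the build; the sources used here give neither versions nor settings. The deposited lists name merged peaks, and each was read as an overlap of replicates; every region of the 2 VDR lists was merged from 2 or more peaks. The score column deposited by the authors was 0 in all transcription factor lists and undefined in histone lists, where it only served to leave out the lowest 25% of regions in 1 alternative. The depth of each library is unknown, so list length may vary with depth or enrichment as well as with binding. The protocol text names H3K5Ac where sample labels give H4K5Ac; the labels were followed. Vehicle lists of C/EBPβ, RUNX2 and the histone marks were not analysed here.

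Positions and sequences came from the mm9 genome (NCBIM37) with GENCODE vM1, which holds 22208 protein-coding gene names on the chromosomes used. Of 400 listed genes, 396 were in it. Overlaps, motif searches and 31-base word counts were computed in Python 3.11.15 with numpy 2.4.6 and pysam 0.24.0, and were tested on simulated data. Two-sided Fisher's exact tests (conditional odds ratios), exact McNemar tests and Clopper-Pearson intervals used scipy 1.17.1, and Breslow-Day tests statsmodels 0.14.6, with Benjamini-Hochberg adjustment within each family and a threshold of 0.05; all intervals are 95%. The genes named in the text are, by rule, up to 25 listed genes with the most calcitriol-only sites within 100 kb, up to 15 listed genes with a vehicle site within 1 kb, and up to 10 genes of any kind; 1 gene that the rule picks is not reported here. Members, gene lists and tests were chosen with earlier results of these data known. The copy counts, the comparisons within calcitriol-only sites the Breslow-Day tests and the alternatives without multi-copy sites or the X chromosome were added after seeing the data.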

Additional observations from a re-analysis of the deposited data

Results flagged for a closer look

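The share of VDR calcitriol sites that were calcitriol-only differed between the states. It was 70.8% of 871 sites in differentiated cells and 88.8% of 7000 in undifferentiated cells (odds ratio 0.307, interval 0.260 to 0.364; two-sided Fisher's exact p = 2.25e-40). Without the X chromosome, which held 19 of the 254 sites of both treatments, the odds ratio was 0.321. Each state is 1 pair of lists, and the matrix removal of differentiated cultures and the list lengths differ with the state, so these cannot be told apart.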

How the results depend on the processing

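No analysis paired by culture was possible because each group is 1 list without replicate numbers. Of 317 values recomputed under other settings, 289 kept their direction and their side of the threshold or stayed in range. Some settings could not change some of these values. The wider promoter leaves overlaps over all sites as they were, and the histone filter leaves those with transcription factors. The overlap settings leave DR3 matches as they were. The count of 289 therefore overstates how far the results were tried. The calcitriol-only share stayed between 70.4% and 72.7%. Keeping only regions merged from 2 or more peaks removed no VDR region of differentiated cells. List genes with a calcitriol-only site numbered 31 within 50 kb and 34 by nearest start alone, against 54 within 100 kb; over all genes the shares were 3.89% and 2.42%. With promoters taken as within 5 kb, 7 features passed at promoters, against 3 within 1 kb, among them RXR with calcitriol (odds ratio 2.51), C/EBPβ (2.85) and RUNX2 (1.77). H3K4me3 at promoters no longer passed without the lowest 25% of histone regions (odds ratio 0.547). DR0 and YY1 motifs no longer passed when only the centre of each site was searched (odds ratios 6.73 and 0.204). Without multi-copy sites, H4K5Ac (odds ratio 1.33) and undifferentiated VDR with calcitriol (1.14) no longer passed over all sites.

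Reversals concerned differences that had not passed. For H3K36me3 the odds ratio became 0.819 over all sites and 0.957 at promoters within 500 bp, and 0.867 at distal sites without multi-copy sites. With promoters within 5 kb, RXR with vehicle became 1.13, H4K5Ac 1.14 and H3K4me1 1.34. H3K4me1 at promoters became 1.37 within 500 bp, 1.34 without low-score histone regions and 1.53 without multi-copy sites, where H4K5Ac became 1.51. C/EBPβ at promoters became 0.750 with 100 bp of overlap. In site centres alone, NFY became 0.925 and the E-box 1.10. The causes were not tested. Depth, replicate spread and peak height could not be examined, since the lists hold none of them.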

Other observations

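Gene families named after seeing the genes at sites of both treatments were counted at their starts, with no test. Cytosolic ribosomal protein genes (symbols Rpl and Rps) had a calcitriol-only site within 1 kb of a start at 4 of 76 and a both-treatment site at 11 of 76 (14.5%). Proteasome subunit genes had these at 1 and 4 of 39, mitochondrial ribosomal protein genes at 1 and 4 of 77, and zinc finger genes (symbols Zfp, Zkscan and Zscan) at 5 (1.28%) and 17 (4.34%). Over all genes the shares were 0.509% and 1.06%.

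On chromosomes left out of the comparisons, the differentiated VDR lists held 2 calcitriol and 3 vehicle regions. The vehicle stretch at the start of chromosome 9 held 6 sites, all multi-copy, each in a region of some histone mark, whereas 2 of the X stretches held 6 and 5 multi-copy sites without a mark. Near Sfi1 on chromosome 11 were 4 single-copy vehicle sites, all in marked regions and none with RXR under calcitriol.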
